A study of Mus musculus with 6 samples.

Results

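The 10 genes described here encode autophagy receptors, ubiquitin-like Atg8 proteins, initiation factors and MiT/TFE transcription factors. They were picked by gene symbol, with earlier results of these data known. They were Sqstm1, Optn, Map1lc3b, Gabarap, Gabarapl1, Ulk1, Becn1, Tfeb, Tfe3 and Mitf, 10 of the 54532 genes in the table, and all 10 were among the 14807 genes that passed the filter on low values. Neutrophils were isolated with Ly-6G magnetic beads from mouse bone marrow, cultured, challenged with live Candida albicans for 6 h and taken for RNA sequencing. There were 3 cultures from wild-type (WT) mice, numbered 1 to 3, and 3 cultures from progranulin knockout (PGRN KO) mice, numbered 4 to 6. Both genotypes are labelled with the strain C57BL/6J, and all 6 cultures received the fungus, so the data hold no comparison of stimulated with resting cells. The knockout is of the whole animal, and the WT and PGRN KO mice came from different suppliers, so that genotype and source of mice cannot be told apart. How old the mice were and how many stood behind each culture is not stated. The p-values therefore measure the spread between these cultures, which may be technical.

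Autophagy encloses cytoplasmic cargo in a double membrane that fuses with the lysosome. A kinase complex around Ulk1 and a lipid kinase complex around Becn1 start the process, Atg8 proteins (the LC3 and GABARAP families) are attached to the growing membrane, and receptors such as p62 tie ubiquitin-marked cargo to them. TFEB, TFE3 and MITF are related transcription factors that bind the sequence CACGTG in the promoters of lysosomal and autophagy genes and are held in the cytoplasm when the kinase mTORC1 is active. In phagocytes the same machinery serves the uptake and breakdown of microbes. Progranulin, encoded by Grn, is a secreted protein that is also delivered to the lysosome.

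The deposited value is the FPKM, the number of sequenced fragments scaled by gene length and by library size. The number of fragments assigned to genes ranged from 17290604 to 17799798 for WT and from 17087344 to 18821091 for PGRN KO, as recovered from the FPKM values. The knocked-out gene Grn was at 168, 161 and 166 FPKM in WT and at 0.242, 0.206 and 0.747 FPKM in PGRN KO. Genotypes were compared with limma on log2(FPKM + 1), with Benjamini-Hochberg adjustment over all 14807 genes and a threshold of 0.05. All fold changes are PGRN KO minus WT on that scale, which understates the change of low genes. In this test 7.94% of all genes were called higher in PGRN KO and 9.95% were called lower. A fit of only the 9249 genes averaging 1 FPKM or more called 1598 lower and 1270 higher. Those shares are larger, so the shares over all genes are a low yardstick for well-expressed genes.

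Of the 10 genes, 5 were called lower in PGRN KO and 0 were called higher. The 5 were the transcription factors Tfeb and Mitf, the Atg8 gene Gabarapl1 and the receptors Sqstm1 and Optn. All 10 log2 fold changes were negative, with a median of -0.19 against 0.0026 over all genes tested. The choice of library scaling mattered to the small changes. The library sizes built into the deposited values lower PGRN KO by 0.12 on the log2 scale relative to WT when compared with plain totals of fragments. With plain totals, 4 of the 10 were called lower (Tfeb, Gabarapl1, Mitf and Sqstm1) and 0 higher, where 6.31% of all genes were called lower and 14.5% higher. The median over the 10 genes was then -0.075 and that over all genes was 0.067. A test on the recovered fragments (limma voom) also called 4 lower and 0 higher, against 8.46% and 20.2% of all genes, and there the median over all genes was 0.12. In 9 of the 10 genes every PGRN KO value lay below every WT value, a pattern that 19.6% of all genes showed, while 18.1% showed the opposite pattern. Fewer cells of a kind that expresses a gene and less of its RNA per cell cannot be told apart in such bulk libraries.

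**Figure D1:**
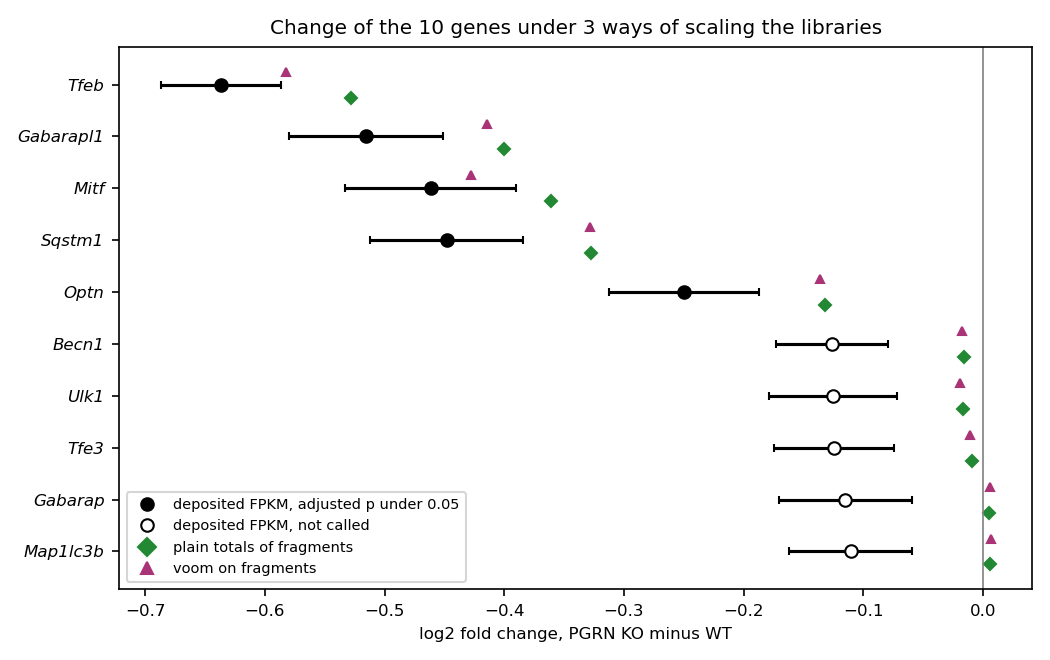
Log2 fold change (PGRN KO minus WT, horizontal axis) of the 10 genes, with the deposited FPKM as circles with bars of 1 standard error (3 libraries per genotype), plain totals of fragments as diamonds and voom as triangles. Filled circles had an adjusted p under 0.05, and Gabarap and Map1lc3b alone have markers on both sides of 0.

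The sharpest change was in the MiT/TFE factors. Tfeb, which encodes the best known activator of lysosomal genes, is on chromosome 17 (ENSMUSG00000023990, chr17:47737030-47792419, + strand, GRCm38). It was at 12.6, 12.1 and 11.9 FPKM in WT and at 7.69, 7.22 and 7.61 FPKM in PGRN KO. The genotypes did not overlap, and the spread within each was far smaller than the gap between them. The WT mean was 1.63 times the PGRN KO mean (12.2 ± 0.362 against 7.51 ± 0.253 FPKM, SD, n = 3). The log2 fold change was -0.64 ± 0.05 (SE), with an adjusted p of 0.000701 in limma. It rested on 3519 fragments in WT and 2369 in PGRN KO, and with plain totals the log2 fold change was -0.53 with an adjusted p of 0.00142. Tfeb was called in 6 of 6 fits that each left out 1 library.

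Mitf encodes the factor known for its roles in melanocytes, osteoclasts and mast cells, and it lies on chromosome 6 (ENSMUSG00000035158, chr6:97807052-98021349, + strand). Its level was the lowest of the 10 genes, at 6.08, 6.12 and 7.01 FPKM in WT and 4.46, 4.11 and 4.54 FPKM in PGRN KO. WT library 3 stood above the other 2 WT libraries, and all 3 PGRN KO libraries lay below the lowest WT library. Mitf had a log2 fold change of -0.46 ± 0.071 (SE), with an adjusted p of 0.00772, and the gene was called in 6 of 6 fits that left out 1 library. Genes that mark basophils and mast cells had a summed level of 2.04 to 2.47 FPKM in WT and 11.01 to 12.5 FPKM in PGRN KO. Of the 5 tested, 4 were called higher, against 7.94% of all genes. Markers of other cells, monocytes and macrophages among them, are given below. The part of any cell type in the level of Mitf was not tested.

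Tfe3 encodes a close relative of TFEB with overlapping targets and is on the X chromosome (ENSMUSG00000000134, chrX:7762560-7775202, + strand). It stood at 22.3, 22.8 and 22.1 FPKM in WT and at 21.2, 20.9 and 19.3 FPKM in PGRN KO. The values did not overlap, but the difference was small and did not pass the test (log2 fold change -0.12 ± 0.05 SE, adjusted p of 0.141). A processed pseudogene of Tfe3 on chromosome 10, AC150314.1, held 41 to 96 fragments per library, and reads of Tfe3 could have been split between the pair. The last gene of the family, Tfec, was at 3.05, 3.03 and 3.42 FPKM in WT and 3.11, 3.15 and 3.88 FPKM in PGRN KO, with overlapping values and an adjusted p of 0.646.

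The make-up of the family was compared as shares within each library, which do not depend on how libraries are scaled. Tfeb made up 28.7, 27.5 and 26.9% of the summed FPKM of the 4 genes in WT and 21.1, 20.4 and 21.5% in PGRN KO. Tfe3 made up 50.6, 51.8 and 49.6% in WT and 58.1, 59.1 and 54.6% in PGRN KO. The mean share of Mitf was 14.5% in WT and 12.2% in PGRN KO, and that of Tfec was 7.17% and 9.48%. Shares of the same sum depend on each other, so lower shares of Tfeb and Mitf raise those of Tfe3 and Tfec. The level of Tfe3 itself was not higher in PGRN KO (22.4 FPKM in WT against 20.5 on average). For all 4 genes the shares of the genotypes did not overlap. The exact permutation test gave p = 0.1 for each, the smallest value that 3 against 3 libraries allow, and an adjusted p of 0.129 over the 9 shares tested here and in the Atg8 family, so no share could pass the threshold. The summed FPKM of the 4 genes lay between 44.1 and 44.4 in WT and between 35.3 and 36.5 in PGRN KO, and the mean fell by 19.1%. With plain totals it lay between 42.5 and 42.8 in WT and between 36.9 and 38.1 in PGRN KO, and the mean fell by 12.1%.

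**Figure D2:**
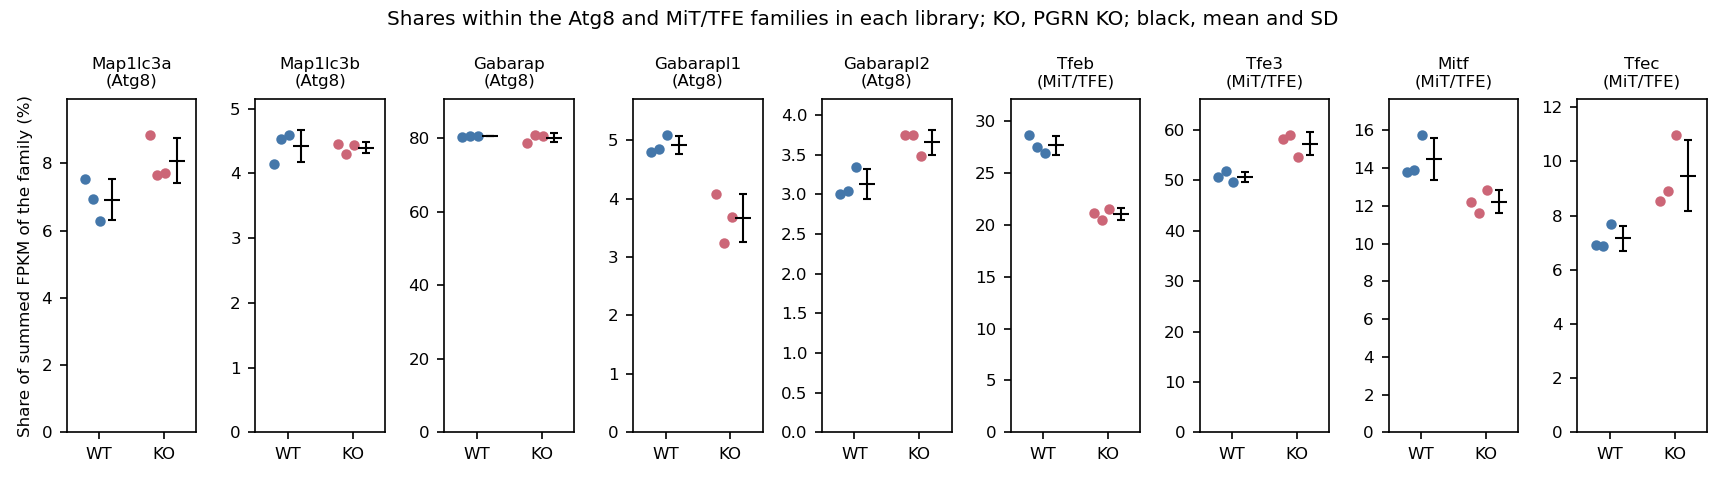
Share of each gene (percent of summed FPKM, vertical axis from 0) in the MiT/TFE family and in the Atg8 family, with a point for each of the 3 WT and 3 PGRN KO libraries and the mean with its SD. The mean share of Tfeb is 27.7% in WT and 21.0% in PGRN KO, that of Tfe3 is 50.7% and 57.3%, and the Gabarap share is 80.6% in WT and 80.2% in PGRN KO.

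Among the receptors, Sqstm1 encodes p62, which binds ubiquitin chains and Atg8 proteins and is itself degraded with its cargo. It lies on chromosome 11 (ENSMUSG00000015837, chr11:50199366-50210827, - strand), 52.2 Mb from Grn. It was the most highly expressed of the 10 genes, at 1835, 1768 and 1728 FPKM in WT and at 1402, 1202 and 1308 FPKM in PGRN KO. Every PGRN KO library was below every WT library, and the PGRN KO libraries were more spread out (SD 100.1 against 54.4 FPKM, n = 3). The WT mean was 1.36 times the PGRN KO mean, and the log2 fold change was -0.45 ± 0.064 (SE), with an adjusted p of 0.00569. With 302883 fragments in WT and 243592 in PGRN KO, counting error was small beside the spread between libraries, and Sqstm1 was called in 6 of 6 fits that left out 1 library and with plain totals (log2 fold change -0.33, adjusted p of 0.0134).

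Optn encodes optineurin, a receptor that links ubiquitin-coated bacteria and damaged mitochondria to Atg8 proteins, and is on chromosome 2 (ENSMUSG00000026672, chr2:5020642-5064051, - strand). Its level was 42.8, 43.7 and 43.1 FPKM in WT and 39.7, 34.9 and 34.2 FPKM in PGRN KO. The WT libraries lay close together, PGRN KO library 4 came nearest to them, and the genotypes did not overlap. In limma the log2 fold change was -0.25 ± 0.063 (SE), with an adjusted p of 0.0368. This call was weak: with plain totals the log2 fold change was -0.13 with an adjusted p of 0.176, and Optn was called in only 1 of 6 fits that left out 1 library, the one without PGRN KO library 4 (adjusted p of 0.00793). In the other 5 such fits the adjusted p was at most 0.123.

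The Atg8 genes did not move together. Gabarapl1, whose product belongs to the GABARAP branch, is on chromosome 6 (ENSMUSG00000030161, chr6:129533160-129542346, + strand). It was at 30.9, 30.1 and 31.6 FPKM in WT and at 22.4, 19.4 and 22.2 FPKM in PGRN KO. The WT mean was 1.45 times the PGRN KO mean and the genotypes were well apart. Its log2 fold change was -0.52 ± 0.064 (SE), with an adjusted p of 0.00352. It was called in 6 of 6 fits that left out 1 library and with plain totals (log2 fold change -0.40, adjusted p of 0.0067), on 3155 fragments in WT and 2391 in PGRN KO.

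Gabarap, by far the most abundant Atg8 transcript here, is on chromosome 11 (ENSMUSG00000018567, chr11:69991143-69994951, + strand), 32.4 Mb from Grn. Its level was 518, 500.5 and 500.3 FPKM in WT and 433, 484 and 487 FPKM in PGRN KO. PGRN KO library 4 was the lowest and the other 2 PGRN KO libraries lay just under WT. The log2 fold change of -0.12 ± 0.055 (SE) did not pass the test (adjusted p of 0.209), and with plain totals it was 0.0051.

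Map1lc3b encodes LC3B, the protein most used to mark autophagosomes, and is on chromosome 8 (ENSMUSG00000031812, chr8:121590361-121598760, + strand). Its values were 26.6, 28.2 and 28.5 FPKM in WT and 24.5, 25.7 and 26.8 FPKM in PGRN KO. It was the only one of the 10 genes whose genotypes overlapped, with PGRN KO library 6 above WT library 1. The log2 fold change was -0.11 ± 0.051 (SE), with an adjusted p of 0.197, and with plain totals it was 0.0055.

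The other 2 Atg8 genes had fold changes of the opposite sign and did not pass the test either. Map1lc3a, which encodes LC3A, was at 48.4, 43.2 and 39.0 FPKM in WT and at 48.7, 45.7 and 46.6 FPKM in PGRN KO (adjusted p of 0.382). Gabarapl2 was at 19.3, 18.9 and 20.8 FPKM in WT and at 20.6, 22.4 and 21.0 FPKM in PGRN KO (adjusted p of 0.229), and both genes had overlapping genotypes. With plain totals the log2 fold change of Gabarapl2 was 0.23 with an adjusted p of 0.0353. With voom both Map1lc3a and Gabarapl2 were called higher in PGRN KO (log2 fold change 0.24 for each, adjusted p of 0.0278 and 0.0199). Within the family, the Gabarapl1 share was 4.80, 4.84 and 5.09% in WT and 4.07, 3.24 and 3.68% in PGRN KO, and the Gabarapl2 share was higher in PGRN KO (3.66% against 3.13% on average). These shares, too, depend on each other. The exact permutation p was 0.1 for Gabarapl1, Gabarapl2 and Map1lc3a and 1 for Gabarap and Map1lc3b. The summed FPKM of the 5 genes lay between 620 and 643 in WT and between 549.6 and 603 in PGRN KO, and the mean fell by 7.14%. This depends on the scaling: with plain totals it lay between 597 and 623 in WT and between 574 and 631 in PGRN KO, the genotypes overlapped and the mean of PGRN KO was 0.956% higher.

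**Figure D3:**
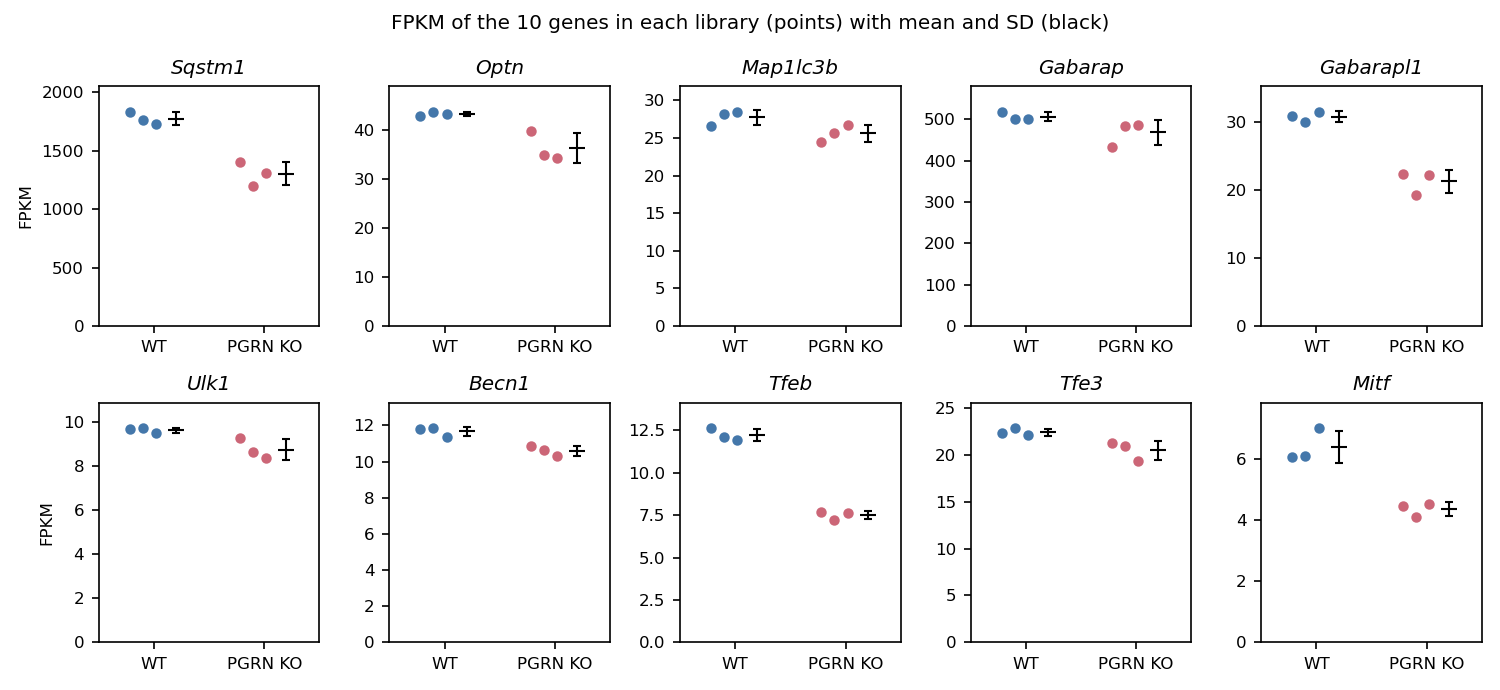
FPKM of the 10 genes in each library (vertical axes from 0, a scale of its own for each gene), with WT libraries 1 to 3 and PGRN KO libraries 4 to 6 as points and the mean with its SD. Only Map1lc3b shows overlapping genotypes, and Tfeb shows the widest gap for its level, at 11.9 to 12.6 FPKM in WT and 7.22 to 7.69 FPKM in PGRN KO.

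The initiation genes differed little. Ulk1, the kinase that starts autophagosome formation, is on chromosome 5 (ENSMUSG00000029512, chr5:110784488-110810097, - strand) and was at 9.67, 9.73 and 9.50 FPKM in WT and 9.27, 8.64 and 8.36 FPKM in PGRN KO. Becn1, the scaffold of the lipid kinase complex, is on chromosome 11 (ENSMUSG00000035086, chr11:101285952-101302286, - strand) and was at 11.8, 11.8 and 11.4 FPKM in WT and 10.9, 10.6 and 10.3 FPKM in PGRN KO. In both genes the genotypes did not overlap, but neither passed the test. Ulk1 had a log2 fold change of -0.13 ± 0.054 (SE), with an adjusted p of 0.164. Becn1 had one of -0.13 ± 0.047 (SE), with an adjusted p of 0.114. Becn1 lies 1.13 Mb from Grn on the same chromosome.

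In WT the order of the levels per length was Sqstm1, Gabarap, Optn, Gabarapl1, Map1lc3b, Tfe3, Tfeb, Becn1, Ulk1 and Mitf, and no neighbours in this order overlapped, though the lowest Tfeb value (11.9 FPKM) nearly met the highest Becn1 value (11.8 FPKM). In PGRN KO, Tfeb lay below both Becn1 and Ulk1, which it exceeded in WT. Gabarapl1 lay below Map1lc3b in PGRN KO, and its values there overlapped with those of Tfe3. This order depends on the gene length used. The deposited length of Map1lc3b, 7517 bases, takes in all its exons and is 2.85 times its longest coding transcript, and that of Tfe3 is 2.73 times. By the longest coding transcript, Map1lc3b would stand at 79.2 FPKM in WT, above Optn at 62.0 FPKM. Fold changes also depend slightly on the length, through the 1 added to each FPKM before the log.

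RefSeq start sites on GRCm38.p6 were searched for CACGTG, the site bound by TFEB, TFE3 and MITF, in windows of 300 bases from 250 before to 50 after each start. The motif reads the same on both strands. It occurred in 0 of 14 windows of 9 of the 10 genes, while 7.15% of all 32851 windows held it. With so few windows, several of them from the same gene, this does not show that the motif is rarer near these genes. Becn1 had no window. The 250 bases before the start are shown for the receptor and Atg8 gene that were called most firmly and for Tfeb, of which 1 of several start sites is given, all in lower case since none holds the motif.
Sqstm1, chr11:50210821-50211070, - strand: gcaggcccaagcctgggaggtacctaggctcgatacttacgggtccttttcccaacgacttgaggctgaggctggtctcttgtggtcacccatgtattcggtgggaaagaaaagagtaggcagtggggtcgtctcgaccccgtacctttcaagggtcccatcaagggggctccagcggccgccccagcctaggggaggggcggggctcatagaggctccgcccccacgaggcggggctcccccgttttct
Gabarapl1, chr6:129532942-129533191, + strand: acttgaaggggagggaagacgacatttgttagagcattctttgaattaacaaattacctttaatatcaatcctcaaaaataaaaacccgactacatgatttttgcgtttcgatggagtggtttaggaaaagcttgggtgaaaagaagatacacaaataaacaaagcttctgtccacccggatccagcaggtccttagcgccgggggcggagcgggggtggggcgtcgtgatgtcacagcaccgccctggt
Tfeb, chr17:47736787-47737036, + strand: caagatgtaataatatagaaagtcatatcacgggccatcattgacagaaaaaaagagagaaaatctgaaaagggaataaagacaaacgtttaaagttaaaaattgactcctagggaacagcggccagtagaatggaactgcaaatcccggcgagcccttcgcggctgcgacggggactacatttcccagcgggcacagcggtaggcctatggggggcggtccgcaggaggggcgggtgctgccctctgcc

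The motif was more frequent around the starts of the pathway's other genes. Of 102 windows of other autophagy genes 17.6% held it, and of 15 windows of CLEAR lysosomal genes, a list of lysosomal genes known to carry such sites, 53.3% did. A high share was thus built into the CLEAR list. The stretches below are from lysosomal and autophagy genes called lower in PGRN KO, chosen after their values were seen to show how the motif recurs, with each CACGTG in capitals.
Lamp1, chr8:13159080-13159160, + strand: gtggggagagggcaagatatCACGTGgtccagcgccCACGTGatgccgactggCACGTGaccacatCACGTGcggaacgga
Gla, chrX:134601174-134601252, - strand: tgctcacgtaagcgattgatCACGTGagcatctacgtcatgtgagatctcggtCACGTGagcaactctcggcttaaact
Mcoln1, chr8:3500428-3500499, + strand: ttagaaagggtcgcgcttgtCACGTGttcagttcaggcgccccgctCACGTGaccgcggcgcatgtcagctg
Vps33a, chr5:123573016-123573063, - strand: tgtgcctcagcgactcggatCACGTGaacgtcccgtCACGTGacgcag
Atg7, chr6:114670944-114670989, + strand: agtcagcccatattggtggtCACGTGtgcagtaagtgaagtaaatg
Fnip1, chr11:54438084-54438129, + strand: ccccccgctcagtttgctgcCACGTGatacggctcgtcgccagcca
Retreg1, chr15:25942471-25942516, + strand: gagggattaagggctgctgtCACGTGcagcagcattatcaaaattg
Rragc, chr4:123917301-123917346, + strand: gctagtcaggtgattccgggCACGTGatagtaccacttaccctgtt

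Lamp1, which encodes a major protein of the lysosomal membrane, had 4 matches within the 81 bases shown, and Gla, Mcoln1 and Vps33a had 2 each. Among the other autophagy and CLEAR lysosomal genes with a window, by the deposited scaling, 12 of the 25 with the motif were called lower in PGRN KO (48%) and 22 of the 69 without it (31.9%). These figures pool lists that differ in both traits. The motif was near 8 of 13 CLEAR genes and 18 of 84 other autophagy genes with a window. Of those tested, 13 of 19 CLEAR genes and 28 of 95 others were called lower. The pooled figures therefore cannot tell the motif from the list, and nothing is concluded from them. Over all genes tested that had a window, 14.8% of the 1109 with the motif and 11.03% of the 8215 without it were called lower. These are descriptions of letters near start sites, and binding was not measured.

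Other genes of the pathway were taken from lists written with earlier results of these data known. They held 99 genes, 95 of which passed the filter on low values (Atg9b, Deptor, Rragb and Prkaa2 did not). Of these 95, 28 were called lower in PGRN KO (29.5%, against 9.95% of all genes) and 4 higher (4.21% against 7.94%), with a median log2 fold change of -0.087. With plain totals these counts became 13 lower and 13 higher, or 13.7% each, where 6.31% of all genes were lower and 14.5% higher, and the median was -0.0023 against 0.067 over all genes. The counts in each direction thus depend on the scaling. In the fit of genes averaging 1 FPKM or more, 31 of the other autophagy genes were called lower and 9 higher. In that fit 1598 of all 9249 genes were lower and 1270 higher. Of the 26 genes picked by rule from these lists and from the CLEAR lysosomal list, 18 were still called with plain totals and 16 in all 6 fits that left out 1 library. The calls of Atg13, Ambra1, Atg4b, Vmp1, Retreg1, Fnip1, Sesn2 and Mcoln1 were lost with plain totals.

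The genes for fusion with the lysosome held the highest share of lower calls among the autophagy lists, 8 of 14, with 1 called higher. These are 57.1% and 7.14%, against 9.95% and 7.94% of all genes. Rab7, the small GTPase of late endosomes, was at 899, 891 and 949 FPKM in WT and 627, 601 and 618 FPKM in PGRN KO. It did not overlap between genotypes, and its log2 fold change was -0.57 ± 0.043 (SE), with an adjusted p of 0.000595. Vps33a and Vps18, subunits of the tethering complexes that dock late endosomes and autophagosomes on lysosomes, were also lower (log2 fold changes -0.42 and -0.40, adjusted p of 0.00349 and 0.00965). Stx17, the fusion protein of closed autophagosomes, went the other way, from 2.39 to 2.71 FPKM in WT to 3.24 to 3.39 FPKM in PGRN KO (log2 fold change 0.28, adjusted p of 0.0271), although it was called in 0 of 6 fits that left out 1 library. With plain totals 4 of the 14 were called lower and 2 higher (28.6% and 14.3%, against 6.31% and 14.5% of all genes).

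Of the 19 tested genes of mTORC1 and its Rag GTPases, the pathway that holds TFEB in the cytoplasm, 6 were called lower and 1 higher. These are 31.6% and 5.26%, against 9.95% and 7.94% of all genes. With plain totals 3 were lower (15.8%) and 2 higher (10.5%), against 6.31% and 14.5%. Flcn, the folliculin that acts on the Rag GTPases, was at 71.8, 73.3 and 71.6 FPKM in WT and 51.3, 46.4 and 47.4 FPKM in PGRN KO. Its partner Fnip2 was at 46.0, 47.8 and 50.4 FPKM in WT and 33.0, 32.0 and 33.8 FPKM in PGRN KO. Neither gene overlapped between genotypes (log2 fold changes -0.57 and -0.53, adjusted p of 0.000913 and 0.00118). Fnip1 was lower as well (log2 fold change -0.36, adjusted p of 0.0201), but not with plain totals (adjusted p of 0.0555). Lamtor2, a subunit of the complex that anchors the Rag GTPases to the lysosome, was higher, at 10.2, 8.12 and 7.62 FPKM in WT and 15.6, 14.9 and 13.4 FPKM in PGRN KO (log2 fold change 0.70 ± 0.11 SE, adjusted p of 0.00764).

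Of the 11 conjugation genes, which attach Atg8 proteins to lipid, 3 were called lower (27.3%) and 0 higher, against 9.95% and 7.94% of all genes. With plain totals 2 were lower (18.2%) and 0 higher, against 6.31% and 14.5%. Atg7, the activating enzyme of this reaction, had a mean of 19.3 ± 0.437 FPKM in WT and 14.6 ± 0.431 FPKM in PGRN KO (SD, n = 3), with a log2 fold change of -0.38 and an adjusted p of 0.00299. Atg4c and Atg4b, proteases that trim Atg8 proteins, had log2 fold changes of -0.53 and -0.20, and the call of Atg4b was lost in all 6 fits that left out 1 library. Among the 12 other receptors and their partners, 4 were called lower (33.3%) and 0 higher. With plain totals 2 were lower (16.7%) and 1 higher (8.33%). With voom 3 were lower and 3 higher (25% each), where 8.46% and 20.2% of all genes were. The 4 lower by the deposited scaling included Tbk1, the kinase that phosphorylates p62 and optineurin, with means of 62.1 ± 0.947 FPKM in WT and 51.0 ± 2.34 FPKM in PGRN KO (log2 fold change -0.28, adjusted p of 0.0094). Retreg1, a receptor for the endoplasmic reticulum, and Wdfy3, a large scaffold for aggregates, had log2 fold changes of -0.30 and -0.38.

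In each of the remaining lists, at most 2 genes were called, where 9.95% of all genes were called lower and 7.94% higher. Of the 8 genes of the VPS34 complexes, 2 were lower, Uvrag (log2 fold change -0.35, adjusted p of 0.00837) and Ambra1 (-0.27, adjusted p of 0.0463). Of the other 4 genes of the ULK1 complex, Atg13 was lower, with an adjusted p of 0.0456. Atg13, Ambra1 and Sesn2 were each called in only 1 of 6 fits that left out 1 library, and Vmp1 and Fnip1 in 2 of 6. Of 9 tested genes for membrane supply, Atg2a and Vmp1 were lower (log2 fold changes -0.36 and -0.26). Among the 8 tested genes of AMPK and the sestrins, Prkag1, a regulatory subunit of AMPK, was higher (0.51, adjusted p of 0.00894) and Sesn2 lower (-0.25, adjusted p of 0.0377). Of 8 other genes of transcription control, some of them transcription factors themselves, Ppp3ca was higher. It encodes the catalytic subunit of calcineurin, which dephosphorylates TFEB. Its means were 7.47 ± 0.347 FPKM in WT and 9.73 ± 0.371 FPKM in PGRN KO (log2 fold change 0.34, adjusted p of 0.00908). Mcoln1, the lysosomal calcium channel upstream of calcineurin, was lower (log2 fold change -0.30, adjusted p of 0.0153). With plain totals the ULK1 complex had 0 lower and 1 higher, the VPS34 complexes 1 and 1, and membrane supply 1 and 2. AMPK and the sestrins then had 0 lower and 1 higher, and other transcription control 0 and 2. There 6.31% of all genes were called lower and 14.5% higher.

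The CLEAR lysosomal genes are known targets of the MiT/TFE factors, and whether their levels here followed from those factors was not tested. Their list, too, was written with earlier results of these data known. Of the 19 genes, 13 were called lower (68.4%) and 0 higher, against 9.95% and 7.94% of all genes. All 19 log2 fold changes were negative, and the median was -0.22 against 0.0026 over all genes. With plain totals 6 were called lower (31.6%) and 0 higher, against 6.31% and 14.5% of all genes. There 18 values were negative, and the median was -0.11 against 0.067 over all genes. Gpnmb, a membrane glycoprotein of lysosome-rich phagocytes, was at 70.4, 61.2 and 62.9 FPKM in WT and 35.4, 33.3 and 35.2 FPKM in PGRN KO, with a log2 fold change of -0.88 ± 0.062 (SE) and an adjusted p of 0.000448. Psap, the precursor of the saposins and a binding partner of progranulin, went from a mean of 1124 ± 53.5 to 761 ± 1.80 FPKM (SD, n = 3, log2 fold change -0.56, adjusted p of 0.000786).

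**Figure D4:**
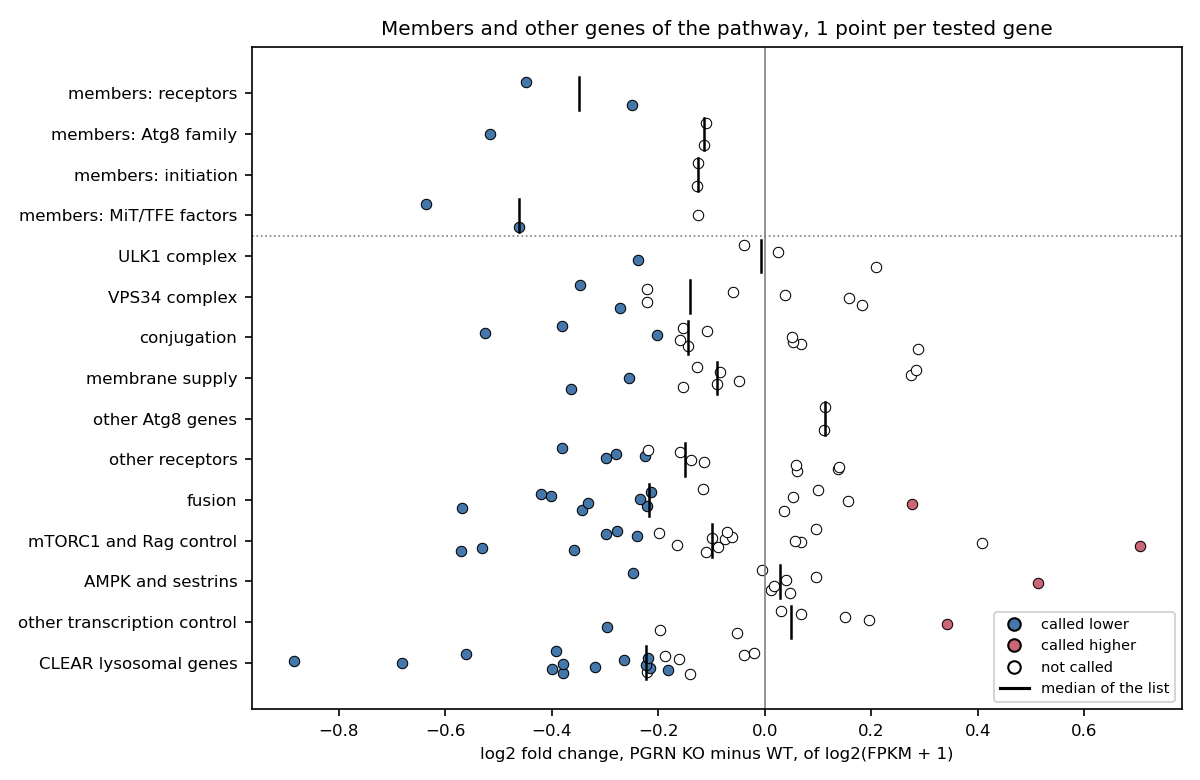
Log2 fold change (PGRN KO minus WT, horizontal axis) with 1 point per tested gene, in rows for the 10 genes by role (above the dotted line) and for each written list, with the median of each row as a vertical bar. Points called lower prevail in the fusion row (8 of 14) and the CLEAR lysosomal row (13 of 19), while 9.95% of all genes tested were called lower. Each row holds at most 1 point called higher.

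The cultures were also compared for marker genes of the cells they could hold. Sums and calls are by the deposited scaling, which lowers PGRN KO relative to plain totals, and sums with plain totals are not given. By that scaling 9.95% of all genes were called lower and 7.94% higher. Neutrophil markers dominated both genotypes, with a summed level of 67342 to 71953 FPKM in WT and 69108 to 78888 FPKM in PGRN KO, and 2 of the 10 (Csf3r and Mmp8) were called lower. Monocyte and macrophage markers were lower in sum in PGRN KO. Their sum was 127 to 132 FPKM in WT and 103 to 119 FPKM in PGRN KO, and 3 of 7 tested, Ccr2 and F13a1 among them, were called lower, while C1qa and C1qb were at or near 0. Promyelocyte markers moved the other way, with a sum of 129 to 144 FPKM in WT and 609 to 670 FPKM in PGRN KO and 5 of 5 called higher. Markers of dividing cells were also higher in sum in PGRN KO (66.1 to 70.0 FPKM against 88.6 to 96.2 FPKM), with 5 of 6 called higher. So were those of B and plasma cells (447 to 462 FPKM against 2168 to 2463 FPKM), but of 5 tested, 4 were called higher and 1 lower. Erythroid markers (1.01 to 3.14 against 5.46 to 6.36 FPKM, 3 of 4 tested called higher) and eosinophil markers (1.58 to 2.46 against 4.87 to 8.34 FPKM, 3 of 3) were higher in sum too. The sum for T and NK cells was higher (2.74 to 3.61 against 7.74 to 9.22 FPKM, with Cd3e and Cd3g at 0), but only 1 of 3 tested was called higher. The part of these shifts in the values of the autophagy genes was not tested.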

How the data were processed

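RNA was measured in 6 libraries of C. albicans-challenged bone marrow neutrophils, 3 WT and 3 PGRN KO, grouped by their labels. The authors deposited FPKM values for 54532 genes, scaled by gene length and library size. Their methods name HISAT and HTSeq, whereas the submitters' processing notes list CASAVA, HISAT2 2.0.5, featureCounts 1.5.0-p3, DESeq2 1.20.0 and GRCm38. Use of strand in counting was not stated. An overlapping gene held at most 1.42% of the fragments of any of the 10 genes (Cntd1 against Becn1).

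Every value above 0, multiplied by gene length, gave a whole number of fragments within 0.05. The library sizes in the deposited values equal median-of-ratios factors, so that totals on genes were 1.03 to 1.04 times the library size in WT and 0.946 to 0.957 times in PGRN KO. Fragments give the depth behind each value and cover counting error only. For genes averaging 1000 fragments or more (2781 genes), replicates varied by a median coefficient of 3.90% in WT and 5.43% in PGRN KO.

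The filter kept genes averaging 0.1 FPKM or more. In R 4.3.3, log2(FPKM + 1) was fitted by lmFit and trended eBayes of limma 3.58.1, and the two-sided p-values of 14807 genes were adjusted by Benjamini-Hochberg. The fit was also run on simulated data with balanced changes and plain totals, which cannot show whether calls hold under the deposited scaling. Shares within families were compared by an exact two-sided permutation test over libraries (scipy 1.17.1 in Python 3.11.15, with numpy 2.4.6 and pandas 2.3.3). Of 54495 identifiers shared with GENCODE M21, 53548 had the same position there, so GRCm38 coordinates are given. Promoter sequences are from RefSeq on GRCm38.p6.

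The 10 genes, the pathway lists and the markers were chosen with earlier results of these data known. From each pathway list, up to 3 higher and 3 lower genes with the largest change were named, provided that the gene averaged 1 FPKM or more, passed the 0.05 threshold and did not overlap between genotypes. Some genes of these lists are not reported here by name. Alternatives were other pseudocounts, filters and scalings, voom on the recovered fragments, robust eBayes, and each library left out in turn.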

Additional observations from a re-analysis of the deposited data

How the results depend on the processing

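Of the values of single genes, 322 kept their direction and their side of the threshold under alternatives that kept all libraries, 22 lost and 3 gained a call, and 4 changed sign. The 4 were Map1lc3b (0.0055 with plain totals and 0.0061 with voom) and Gabarap (0.0051 and 0.0055), none of them called. Median-of-ratios scaling was bound to give nearly the same values, since the deposited library sizes already equal those factors. Of the genes counted, 26 had been named because they were called. With 1 library left out, 189 values kept direction and side of the threshold, 44 lost a call and 1 changed sign. The summed Atg8 level, lower by the deposited scaling, was 0.956% higher in PGRN KO with plain totals, an alternative chosen after seeing the data. Leaving out 1 library moved Tfec between -0.012 and 0.11, the Gabarap share between -0.832 and 0.254 percentage points and the Map1lc3b share between -0.169 and 0.0615 points, and without the lowest member of the family the Gabarap share differed by 0.0278 points. Of all genes tested, 2648 were called (1175 higher, 1473 lower). Voom called 4236, of which 2984 were higher, and plain totals called 2149 higher and 934 lower. Leaving out 1 library gave 1385 to 2229 calls, 581 to 947 higher and 804 to 1282 lower. Of the other autophagy genes, 28 were called lower, against 13 with plain totals, 18 with voom and 14 to 24 with 1 library left out. The 4 called higher became 9 at a mean FPKM of at least 1, 7 with quantile normalization, 13 with plain totals, 18 with voom and 3 to 5 with 1 library left out. Fits with 1 library left out hold fewer samples. Of the 10 genes, 4 to 5 were called lower with 1 library left out. No paired analysis was possible because the replicate numbers of the genotypes, 1 to 3 and 4 to 6, are not shared. With 3 libraries per genotype, changes the size of those in Ulk1, Becn1 and Tfe3 did not pass the test, which does not show that these genes were alike in both genotypes.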
